A study of Homo sapiens with 8 samples.

Results

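The 10 heat shock and chaperone genes described here were HSPA1A, HSPA1B, HSPA8, HSPH1, DNAJB1, HSP90AA1, HSP90AB1, HSPD1, HSPE1 and HSF1, a named list taken from 19516 protein-coding genes of the annotation, all 10 of which were found. RNA polymerase II (RNAPII) occupancy had been measured by ChIP-seq, in which DNA bound by a protein is pulled down with an antibody and sequenced, in MDA-MB-453, a human line long kept in culture that was derived from a breast cancer. Cells had received either vehicle or 600 nM CDDD11-8 (D11-8 in the labels), an inhibitor of the kinase CDK9, for 4 h, and treatment is the only difference between groups that the labels give. Each treatment had 2 libraries from separate passages of this single line, which differ in passage and not in donor. Of the marker genes reported, those of luminal breast cells, FOXA1, TRPS1, ERBB2, KRT8, KRT18 and SPDEF, had a promoter peak in all 4 libraries, and ESR1, PGR, PTPRC, CD3E and KRT5 had none.

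Chaperones bind unfolded or newly made proteins and keep them from aggregating. HSP70 proteins take turns on and off their clients with the help of J proteins and exchange factors, HSP90 proteins finish the folding of kinases and steroid receptors, and the HSPD1-HSPE1 chamber folds proteins in mitochondria. When proteins misfold, the transcription factor HSF1 binds arrays of short inverted repeats, the heat shock elements, before these genes. The HSP70 genes are the textbook case of promoter-proximal pausing, in which RNAPII starts a transcript, stops shortly after the transcription start site (TSS) and waits for CDK9 to release it into the gene body.

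The sequences before the start sites are shown first, because heat shock elements lie there. They were read from GRCh37, the build of the peak files, and run 5′ to 3′ on the strand of the gene. The element searched was GAANNTTCNNGAA or its other strand TTCNNGAANNTTC, 3 alternating units with 2 bases between them, in the window from 250 bp before to 50 bp after each canonical TSS. Of all 19516 promoters 72 held a match (0.369%), and of the 10 members 4 did, namely HSPA8, HSP90AA1, HSPH1 and HSPD1. In these lines the matched element is in capitals, with up to 28 bases shown where another transcript's first exon lies there.
HSPA8, chr11:122932880-122932907, minus strand: cgggccccTTCTGGAAGGTTCtaagata
HSPA8, chr11:122933055-122933082, minus strand: gcgagcttGAAAGTTCCAGAAcgctgcg
HSPH1, chr13:31736081-31736108, minus strand: gccgcagaTTCTGGAAAGTTCtgatcag
HSPD1, chr2:198364787-198364814, minus strand: gcattTTCTGGAAAGTTCTGGAAccgag
HSP90AA1, chr14:102553382-102553541, minus strand: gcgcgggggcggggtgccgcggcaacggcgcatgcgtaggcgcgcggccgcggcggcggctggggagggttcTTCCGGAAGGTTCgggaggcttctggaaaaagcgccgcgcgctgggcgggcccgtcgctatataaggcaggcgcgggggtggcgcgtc

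In HSPD1 a pair of matches, one on each strand, overlapped from position -245 to position -228 relative to its TSS, in the stretch between HSPD1 and its divergent neighbour HSPE1. The element of HSPA8 nearest the TSS ended at position -43, that of HSPH1 at -47 and that of HSP90AA1 at -76 bp. The remaining 6 members had no match to these letters in this window, which says nothing of looser elements.

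HSPA1A and HSPA1B are shown because they cannot be read apart along most of their length. Both held the TATA box TATAAA, in capitals below, which was found on either strand in 9.57% of all promoters and in no other member. The search took these exact letters alone, which says nothing of looser TATA boxes in the other members.
HSPA1A, chr6:31783160-31783319, plus strand: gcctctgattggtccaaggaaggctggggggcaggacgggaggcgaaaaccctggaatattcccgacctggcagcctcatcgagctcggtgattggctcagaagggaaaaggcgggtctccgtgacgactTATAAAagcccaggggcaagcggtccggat
HSPA1B, chr6:31795355-31795514, plus strand: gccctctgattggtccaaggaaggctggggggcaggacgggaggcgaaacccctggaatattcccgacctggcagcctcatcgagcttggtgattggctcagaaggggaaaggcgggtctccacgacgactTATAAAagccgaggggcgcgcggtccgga

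These 160 bp were 93.8% identical in an alignment of the pair. Over the 2400 bp after the TSS identity was 91.9%, with a longest identical run of 1715 bp. Of the 2251 stretches of read length (150 bp) in those 2400 bp of HSPA1A, 69.6% occurred unchanged in HSPA1B. In the 500 bp after that, identity was 45%. How reads fitting both copies were placed is not given in the sources used here, so a value inside either gene is uncertain as to the copy.

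All values below came from lists of peaks, the regions where RNAPII signal exceeded the matched input, each with its summits and their fold enrichment over input. The vehicle libraries held 78306 and 57493 peaks and the CDDD11-8 libraries 25897 and 21842, whereas the number of protein-coding genes with a peak within 300 bp of the canonical TSS was alike at 10434, 10625, 10910 and 10551. The files hold no read counts, and of the depth only a minimum common to all libraries is stated, which leaves the reads behind each list unknown, and the fall in called peaks moves with every coverage value below; its part in them was not tested. Values in series are given in the order vehicle 1, vehicle 2, CDDD11-8 1, CDDD11-8 2. With 2 libraries against 2, the smallest two-sided p an exact permutation test can give is 0.333, so no single difference here could pass a threshold. "Separated" therefore means only that both CDDD11-8 libraries lay on the same side of both vehicle libraries, and each count of separated members is set beside the share of all tested genes that did the same. Tested genes were at least 1 kb long with a promoter peak in all 4 libraries. Values refer to the canonical transcript unless the longest is named.

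In vehicle, the peaks at the promoters of most of these genes had a high fold enrichment compared with those of other genes. Because fold enrichment was higher at most promoters of the CDDD11-8 libraries, each promoter peak was ranked by its highest fold among the promoter peaks of all genes in the same library, as a percentile. That highest fold can lie far from the TSS where a peak is long, so the strongest summit within 300 bp of the TSS is ranked apart below. Highest by its vehicle mean was HSPA8, the constitutive HSP70 of the cytosol, at 98.4, 98.4, 99 and 99.6, although HSP90AA1 stood at 98.9 in vehicle 2. Lowest-ranked in vehicle was HSF1 at 25.1 and 29.4. In vehicle the mean percentile was 96.5 ± 0.694 (SD, n = 2) for HSPA1A and HSPA1B, 96.1 ± 3.95 for HSP90AA1, 94.9 ± 2.77 for HSP90AB1, 87.9 ± 8.87 for DNAJB1, 70.3 ± 28.4 for HSPD1 and HSPE1, which share 1 peak, and 58.7 ± 0.287 for HSPH1. In that order HSPA8 lay above HSPA1A, DNAJB1 above HSPD1 and HSPH1 above HSF1 within both vehicle libraries, though the values of DNAJB1 and HSPD1 overlapped across libraries. The other neighbours in the order changed places between the vehicle libraries and so cannot be ranked. These were HSPA1A and HSP90AA1, HSP90AA1 and HSP90AB1, HSP90AB1 and DNAJB1, and HSPD1 and HSPH1. Among all peaks of a library rather than promoter peaks alone, HSPA8 stood at the percentile 99.8, 99.8, 99.8 and 99.9, and HSF1 at 71.4, 85.3, 93.2 and 87.2.

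**Figure D1:**
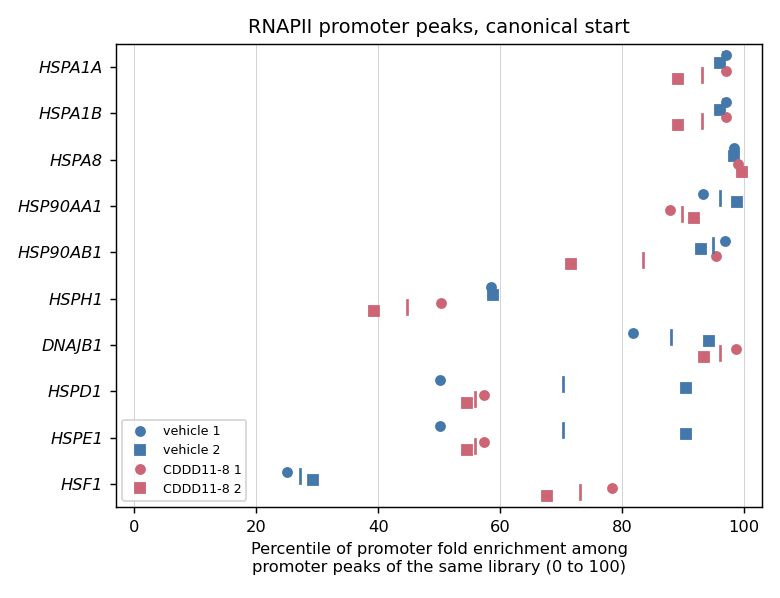
Percentile of promoter fold enrichment (x axis, 0 to 100) for the 10 genes in each of the 4 libraries; circles and squares are replicates 1 and 2, blue is vehicle, red is CDDD11-8, and vertical ticks are means of 2. HSF1 stood at 25.1 and 29.4 in vehicle and at 78.4 and 67.7 with CDDD11-8, HSPH1 and HSP90AA1 were lower in both CDDD11-8 libraries, and HSPA1A and HSPA1B carry the same values because they share a peak.

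Fold enrichment at the promoter was higher in both CDDD11-8 libraries for 10 of 10 members, but 88.2% of all tested genes showed that order, so the count is near the background. The percentile was higher in both CDDD11-8 libraries for 2 of 10 members, HSPA8 and HSF1, against 25.2% of all genes, and lower for 2, HSP90AA1 and HSPH1, against 21.8%. The call of HSP90AA1 rests on summits away from its start, since in vehicle 1 the peak's highest fold was 14.5 and the fold at the TSS 6.19. That fold is a ratio to input, and the TSS summit was not low in pileup, the signal before comparison with input. In vehicle 1 its pileup was 398, against 52 at the summit of highest fold in the body and 100 at that after the TES. Ranked by the strongest summit within 300 bp of the TSS, a measure repeated on the canonical transcript after the data were seen, HSP90AA1 stood at 61, 99.5, 90.9 and 93.4 and overlapped. HSPA1A stood at 88, 89, 65.5 and 91.1 on that measure and HSP90AB1 at 95.1, 95.2, 96.9 and 58.4, and both overlapped. HSPA8 at 99.2, 99.2, 99.4 and 99.8 and HSF1 at 16.5, 34.1, 82.9 and 71.4 were again higher in both CDDD11-8 libraries, which makes 2 of 9 members with such a summit in every library, against 24.7% of all genes. HSPH1 at 67.2, 63.1, 55 and 42.9 and HSPA1B at 95, 97.3, 87.2 and 89 were lower, against 20.9%. With the longest transcript, whose start is the relevant TSS in 9 testable members, 4 were higher against 25.0% of all genes: HSPA8, HSF1, HSP90AA1 and HSPD1. That start lies 52.6 kb before the canonical start in HSP90AA1, by the promoter of WDR20, and 16.9 kb before it in HSPD1, near MOB4, so those promoter values belong to another promoter region. The longest DNAJB1 transcript starts 41.9 kb before the canonical start and had a promoter peak in vehicle 1 only.

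The HSP70 genes HSPA1A and HSPA1B encode the stress-inducible HSP70 and lie in tandem on chromosome 6, at chr6:31783320-31785719 and chr6:31795515-31798031. In every library both lay inside a single unbroken peak of 36299, 36853, 36112 and 26468 bp holding 43, 48, 49 and 28 summits. Gene body coverage, the share of bases from 300 bp after the TSS to the transcript end site (TES) inside a peak, was therefore 100% in all 4 libraries for both genes, and so was coverage of the 5 kb after the TES. Coverage at this ceiling cannot show a rise, and a fall only where the peak breaks. The peak was narrower in both CDDD11-8 libraries, but in CDDD11-8 1 by less than the vehicle libraries differed from each other. It ended 18907, 19224, 16198 and 8274 bp past the TES of HSPA1B.

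Within that peak the strongest summit within 300 bp of the HSPA1A TSS had a fold enrichment of 10.3, 13.4, 28.8 and 28.8, at an offset from the TSS of 99, 12, 182 and -46 bp. For HSPA1B it was 13.2, 19.1, 39.5 and 27.4, at 93, 49, 87 and 12 bp after the TSS. Both genes stood higher in both CDDD11-8 libraries on this fold scale. Beyond the first kb of the gene, HSPA1B had 1 summit in each vehicle library, of fold 7.18 and 6.63, and none in either CDDD11-8 library. In HSPA1A a summit remained there in each library, with the strongest at 3.78, 7.4, 13.3 and 10.5. HSPA1L, a testis-enriched HSP70 gene, starts on the other strand at -260 bp from the TSS of HSPA1A. An unnamed lncRNA starts 4022 bp after the TES of HSPA1A, and SNHG32, a small nucleolar RNA host gene, starts 4354 bp after the TES of HSPA1B, so the peak also covers these starts.

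HSPA8, the constitutive HSP70, lies at chr11:122928197-122932844 and hosts small nucleolar RNAs in its introns. Its strongest promoter summit had a fold of 22.2, 25.6, 59.7 and 46.3. Its gene body was 100%, 100%, 100% and 98.3% covered, while coverage of the 5 kb after the TES was 100%, 100%, 69.4% and 39.4%. The vehicle mean of 100% ± 0 (SD, n = 2) and the CDDD11-8 mean of 54.4% ± 21.3 did not overlap in their libraries. The peak that began at its promoter ran 6395 and 5413 bp past the TES in vehicle and 275 bp past it in CDDD11-8 1, and in CDDD11-8 2 it stopped short of the TES, at -73 bp. The strongest summit in the 5 kb after the TES had a fold of 22.3 and 21.8 in vehicle and of 4.64 and 7.03 with CDDD11-8, the opposite order to the fold at the promoter.

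HSPH1, a large HSP70 relative that exchanges nucleotide on HSP70, lies at chr13:31709110-31736041 and is the longest member at 26.9 kb. Its promoter percentile was 58.5, 58.9, 50.3 and 39.3. Body coverage was 22%, 19%, 12.9% and 10.8%, and coverage of the 5 kb after the TES was 67.1%, 54.6%, 0% and 0%. Both measures were separated, the second by a difference of -60.8 percentage points, but neither was with equal numbers of peaks. Keeping the strongest 21842 peaks of each library, body coverage was 7.93%, 9.32%, 12.9% and 10.8%, the reverse order, and coverage after the TES was 20.5%, 0%, 0% and 0%. Apart from the promoter peak, the body held 9 and 6 further peaks in vehicle and 1 and 0 with CDDD11-8, and the promoter peak was 3843, 4650, 5696 and 5490 bp wide.

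DNAJB1, the J protein that delivers clients to HSP70 and is itself induced by heat, lies at chr19:14625581-14629209. Its strongest promoter summit had a fold of 9.01, 17.4, 58 and 25.7, and its percentile of 81.7, 94.2, 98.7 and 93.4 overlapped between treatments. The body was 100% covered in all 4 libraries. Coverage of the 5 kb after the TES was 82.8%, 70%, 46.3% and 16.3%, lower in both CDDD11-8 libraries, and the peak ran 4140, 3501, 2315 and 370 bp past the TES. The annotated span of TECR, a fatty acid elongation gene on the other strand, overlaps DNAJB1, and without strand the signal of either gene cannot be told apart.

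Of the cytosolic HSP90 pair, HSP90AA1 was separated in coverage and HSP90AB1 was not. HSP90AA1, the inducible HSP90, lies at chr14:102547079-102553381. Its body coverage was 100%, 100%, 91% and 83%, and coverage of the 5 kb after the TES was 100%, 100%, 64.1% and 49.9%. Both were separated. Its promoter peak ran 7106 and 5006 bp past the TES in vehicle, but ended before the TES with CDDD11-8, at -540 and -1291 bp from it. The strongest summit after the TES had a fold of 13.4 and 11.4 in vehicle and of 3.35 and 4.05 with CDDD11-8, while that within 300 bp of the TSS was 6.19, 28.5, 42.4 and 30.3. Between 5 and 10 kb after the TES coverage overlapped, at 42.1%, 10.9%, 53% and 40.5%.

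HSP90AB1, the constitutive HSP90, lies at chr6:44214838-44221620. Its body was 100% covered in all 4 libraries, and coverage of the 5 kb after the TES was 93.5%, 100%, 100% and 100%. Its promoter percentile of 96.9, 93, 95.4 and 71.6 overlapped. SLC35B2, a sulphate-donor transporter gene, starts on the other strand 4007 bp after the TES, and the promoter peak reached past it, ending 4674, 5166, 5869 and 5338 bp after the TES of HSP90AB1.

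HSPD1 and HSPE1, which encode the mitochondrial chaperonin and its lid, are transcribed away from each other on chromosome 2, from chr2:198351308-198364564 and chr2:198365103-198368173. A single peak covered both starts in every library, of 4839, 5738, 7362 and 6537 bp, so both carry the same promoter values. Its highest fold was 6, 15.2, 27.8 and 17.9, and its percentile of 50.2, 90.4, 57.4 and 54.5 overlapped because the vehicle libraries lay far apart. HSPD1 had the largest difference in body coverage of the 10, at 92.8%, 90.9%, 44.4% and 38%. The vehicle mean was 91.9% ± 1.3 (SD, n = 2) and the CDDD11-8 mean 41.2% ± 4.56, a difference of -50.7 percentage points.

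After the TES of HSPD1 coverage was 100%, 92.5%, 49.4% and 0%. Within the gene itself, the log2 ratio of its strongest summit near the TSS to its strongest summit in the body was -0.57, 0.89, 1.67 and 1.53, a difference of 1.43 between means on the log2 scale. This ratio is of fold over input and not of signal. In vehicle 1, where it was negative, the pileup was 201 at the summit near the TSS and 50 at that in the body of HSPD1. HSPE1 differed from HSPD1 inside the gene, where its coverage of 71.2%, 73%, 94.7% and 70.8% overlapped between treatments. After the TES of HSPE1 coverage was 86.3%, 93%, 0% and 0%, the largest difference of the 10 at -89.7 percentage points. The shared promoter peak reached 2207, 1469, 2924 and 2260 bp past the TSS of HSPE1, further in both CDDD11-8 libraries but in CDDD11-8 2 only slightly. Coverage of the HSPE1 body by other peaks was 2.35%, 30.7%, 0% and 0%. With the longest HSPE1 transcript body coverage was 75.1%, 73.8%, 100% and 77%, higher in both CDDD11-8 libraries. The readthrough gene HSPE1-MOB4 and the longest HSPD1 transcript span this region, so signal there is not that of HSPE1 alone.

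HSF1, the transcription factor that drives the heat shock response, lies on chromosome 8 and is 23.1 kb long. Its promoter percentile was 25.1, 29.4, 78.4 and 67.7, the largest difference of the 10 at 45.8 percentile points between means. Its promoter peak was 3388, 3319, 7200 and 6186 bp wide. Body coverage was 52.7%, 44%, 46.4% and 24.8%, which overlapped between treatments and was lower with CDDD11-8 within each same-numbered pair, whereas coverage by peaks other than the promoter peak was 44.6%, 36.2%, 30.6% and 12.3%, which did not. The log2 ratio of its strongest summit near the TSS to its strongest summit in the body was -0.36, 0.30, 1.86 and 0.21, which overlapped. BOP1, a ribosome biogenesis gene, starts on the other strand at -204 bp from the TSS of HSF1 and shares its promoter window. The strongest summit within 300 bp lay at -186 and -290 bp in vehicle and at 51 and 201 bp with CDDD11-8. In vehicle 1, however, a stronger summit (fold 4.18 against 3.25) lay just outside that window at 406 bp, and in vehicle 2 a summit of fold 6.09 at 145 bp nearly equalled that of 6.16 at -290 bp, so no move of the summit is read from these offsets. DGAT1, a triglyceride synthesis gene, converges on the end of HSF1 and an unnamed lncRNA starts 418 bp after it, and coverage there was 100% in all 4 libraries.

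The position of RNAPII at the start of each gene was read from the strongest summit within 300 bp of the TSS. At HSP90AA1 it lay 3, 3, 18 and 51 bp after the TSS and at HSPH1 30, 105, 34 and 29 bp after it. At HSP90AB1 the offsets were 44, 123, 80 and 75 bp, at DNAJB1 150, 80, 181 and 122 bp, at HSPD1 10, 27, 23 and -25 bp, and at HSPA8 197, -9, -32 and 22 bp. The CDDD11-8 offsets lay further into the gene in both libraries at HSP90AA1, by less than 50 bp, and overlapped with vehicle at the other 5 genes listed here. Each of these summits lay within 200 bp of the TSS. HSPE1 had a summit in this window in vehicle 1 and CDDD11-8 1 only, at -92 and -158 bp, with a fold of 4.44 and 25.4. Of the offsets given earlier, those of HSPA1A and HSPA1B overlapped and those of HSF1 did not, with the limit stated there. The share of all genes with such an order was not computed, so nothing about these members is read from it.

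**Figure D2:**
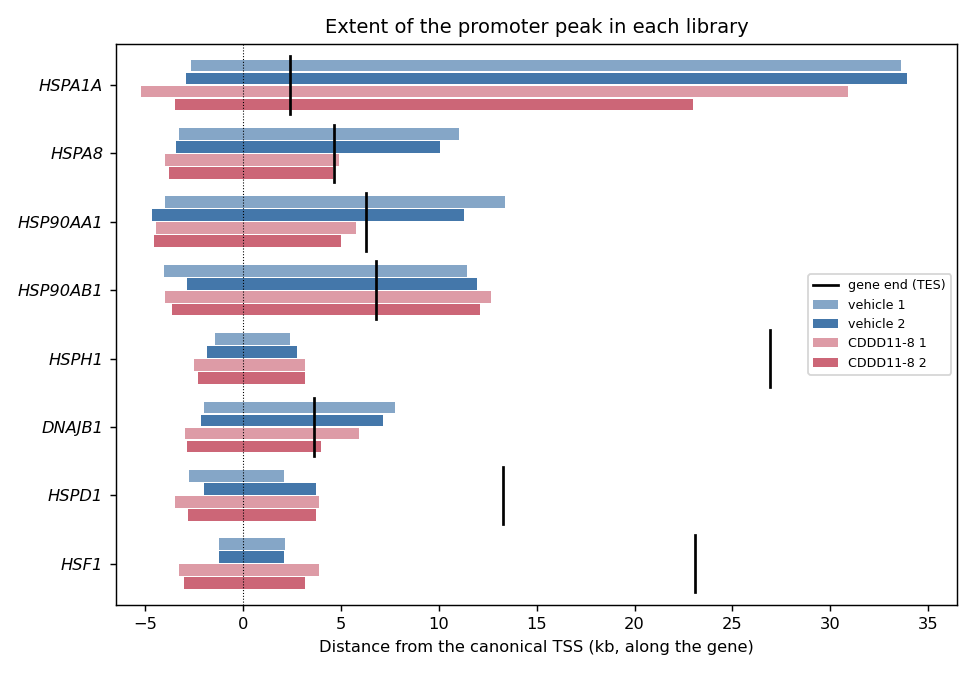
Extent of the peak that covers the canonical TSS, in kb from the TSS along the gene, with 1 bar for each library (blue vehicle, red CDDD11-8, paler for replicate 1) and a black tick at the TES; HSPA1B and HSPE1 share the peaks of HSPA1A and HSPD1. At HSPA8, HSP90AA1 and DNAJB1 the downstream edge lay nearer to the TSS with CDDD11-8 in each library of the pair, while at HSPH1, HSPD1 and HSF1 the peak reached further on both sides of the TSS. At HSPD1 the excess was slight in CDDD11-8 2, with 3737 bp after the TSS against 3729 bp in vehicle 2, and 2799 bp before it against 2746 bp in vehicle 1.

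Across the 10 members the promoter peak was wider in both CDDD11-8 libraries for 5 (HSP90AB1, HSPH1, HSPD1, HSPE1 and HSF1), against 64.6% of all genes, and narrower for 5 (HSPA1A, HSPA1B, HSPA8, HSP90AA1 and DNAJB1), against 9.39% of all genes and 13.1% of genes of 1 to 30 kb. With the longest transcript 6 of 9 were wider, against 64.5%. The edges were then read apart, a measure added after the widths were seen. Before the TSS the peak reached further in both CDDD11-8 libraries for 8 of 10 members (67.4% of all genes), the exceptions being HSP90AA1 and HSP90AB1. After the TSS it reached further for 5 (59.1% of all genes) and less far for 5 (9.99% of all genes), the same genes that were narrower. All 5 had a peak that ran past the TES in both vehicle libraries, as did HSP90AB1, which was not narrower. The share of narrower peaks among all genes with such a vehicle peak was not computed. The count is therefore not read as particular to these members. HSPA1A and HSPA1B count here with a single shared peak, as do HSPD1 and HSPE1.

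**Figure D3:**
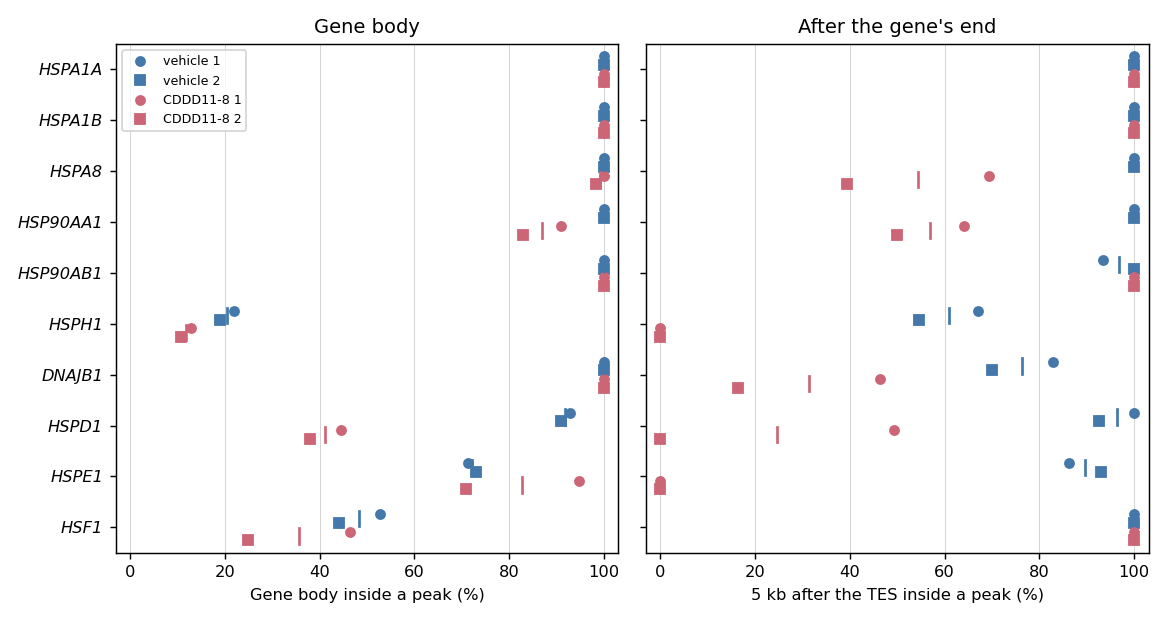
Share of the gene body (left) and of the 5 kb after the TES (right) inside a peak, in percent, for the 10 genes in each library; circles and squares are replicates 1 and 2, blue is vehicle, red is CDDD11-8, and ticks are means of 2. In the body HSPD1 stood at 92.8% and 90.9% in vehicle and at 44.4% and 38% with CDDD11-8, and HSPH1 and HSPE1 were at 0% after the TES in both CDDD11-8 libraries.

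Gene body coverage was lower in both CDDD11-8 libraries for 3 of 10 members, HSP90AA1, HSPH1 and HSPD1, against 36.9% of all tested genes, and higher for 0, against 25.7%. Without HSPH1, which was lost both with equal numbers of peaks and at a -log10 q-value of at least 5, the count was 2, against 22.2% and 29.6% of all genes in those settings. Within same-numbered pairs it was 4, HSF1 being the fourth, against 41.6%. With the longest transcript 2 of 9 were lower, against 37.1%. The median difference over the members was -0.42 percentage points, beside -0.522 over all genes. Of the other 7 members, HSPA1A, HSPA1B, HSP90AB1 and DNAJB1 stood at 100% in every library, and HSPA8 at 98.3% or more.

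After the TES, coverage was lower in both CDDD11-8 libraries for 6 of 10 members (HSPA8, HSP90AA1, HSPH1, DNAJB1, HSPD1 and HSPE1), against 44.9% of all genes, and higher for 0, against 4.48%. With the longest transcript 5 of 9 were lower, against 42.6%. The median difference was -44.1 percentage points over the members and -8.43 over all genes. The lowest vehicle mean among the members was 60.8% (HSPH1), whereas a gene with no coverage there in vehicle cannot fall. Genes were not matched for their level in vehicle, so the gap between the medians is not read as a trait of the members. The 4 members whose coverage did not separate, HSPA1A, HSPA1B, HSP90AB1 and HSF1, are the 4 with the start of another annotated gene in those 5 kb, and the part of these starts was not tested. That split was drawn after this was seen, so the 6 of 6 members without such a start that were lower restate it; among all genes without such a start 48.6% were lower. Where only the strongest 21842 peaks of each library were kept, 5 of 10 members were lower against 28.3% of all genes, with HSPH1 no longer among them. This alternative was planned for the longest transcript and repeated on the canonical one after the data were seen.

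**Figure D4:**
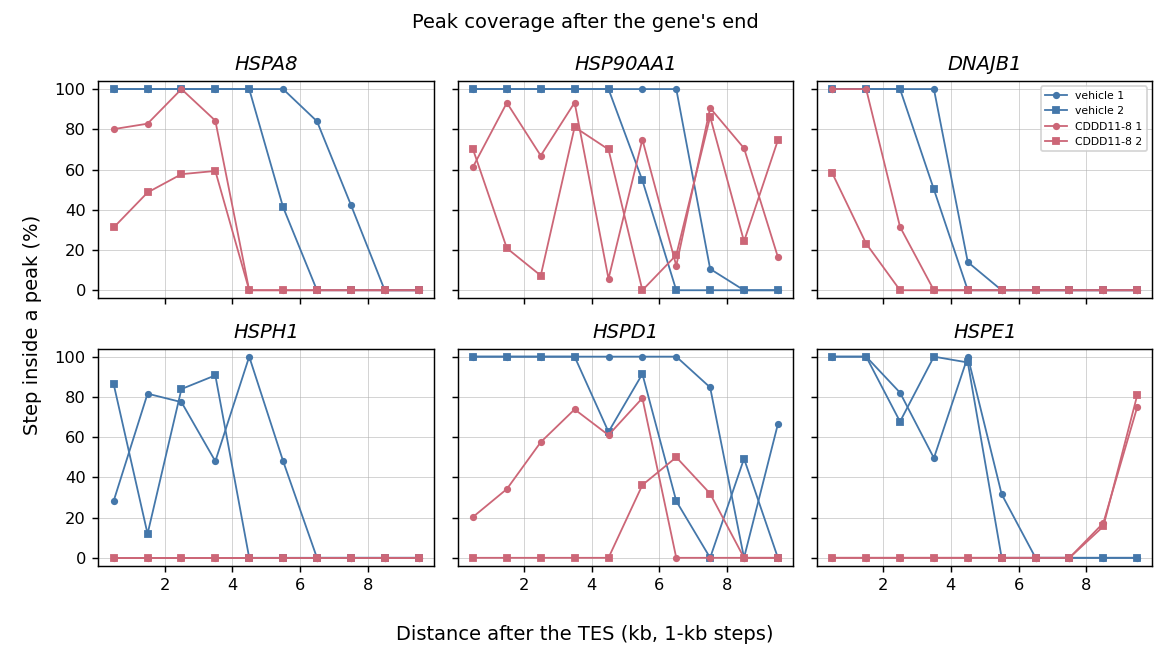
Share of each 1-kb step after the TES inside a peak, in percent, out to 10 kb, for the 6 members with lower coverage in both CDDD11-8 libraries; blue is vehicle, red is CDDD11-8, circles and squares are replicates 1 and 2. In vehicle 1 the first 5 steps of HSPA8, HSP90AA1 and HSPD1 were 100% covered, whereas HSPH1 and HSPE1 had no coverage in these steps in either CDDD11-8 library.

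The ratio of promoter to body peak needs a separate peak in the body in every library, which only HSPD1 and HSF1 had. It was higher in both CDDD11-8 libraries for 2 of 2, against 72.1% of genes, and for 3 of 3 with the longest transcript, against 65.8%. The body peaks of both genes also run past the TES, and their highest fold lay there or beyond in all or some libraries, so this ratio does not compare promoter and body alone. The ratio of the strongest summit within 300 bp of the TSS to the strongest summit in the body could be formed for 8 members and was higher in both CDDD11-8 libraries for 4, against 60.9% of genes. For HSPA8 it was 0.53, 0.61, 2.22 and 2.10 on the log2 scale, a difference of 1.59 between means. For HSP90AA1 it was -0.35, 1.15, 2.02 and 1.48, and for DNAJB1 0.30, 1.30, 2.48 and 1.47, with HSPD1 as given above. HSPA1A, HSP90AB1, HSPH1 and HSF1 overlapped. HSPA1B and HSPE1 lacked a summit in a window of some libraries. All these ratios are of fold over input, so a negative value need not mean less signal near the TSS than in the body. At HSP90AA1 in vehicle 1 the pileup was 398 near the TSS and 52 at the body summit of highest fold.

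Of 56 other chaperone and co-chaperone genes, 47 could be tested. Body coverage was lower in both CDDD11-8 libraries for 22 and higher for 12 (36.9% and 25.7% of all tested genes), with a median difference of -7.27 percentage points beside -0.522 over all genes. Coverage after the TES was lower for 31 and higher for 1 (44.9% and 4.48% of all tested genes), with a median of -28.6 beside -8.43. Neither median was matched for the level in vehicle. All 8 subunits of TRiC, the cytosolic chaperonin that folds actin and tubulin, were lower in both CDDD11-8 libraries, in the body and after the TES, with median differences of -47.7 and -84.7 percentage points. Both HSP90 genes of organelles, HSP90B1 and TRAP1, were lower in both windows too. With the longest HSP90B1 transcript, however, coverage after the TES overlapped, with means of 96.1% in vehicle and 94.6% with CDDD11-8. Of 12 J protein genes 3 were lower and 4 higher in the body, of 8 HSP70 genes 3 and 3, and of 14 co-chaperone genes 5 and 4. After the TES 6 of the J protein genes, 4 of the HSP70 genes and 9 of the co-chaperone genes were lower. The most negative differences in body coverage among the separated genes were in CCT3, a TRiC subunit, at 89.9%, 78.3%, 9.41% and 7.3%, in PTGES3, the HSP90 co-chaperone p23, at 96.1%, 90.4%, 25.9% and 25.3%, and in HSP90B1, the HSP90 of the endoplasmic reticulum, at 80.4%, 81.7%, 20.9% and 19.4%.

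The most positive differences were in DNAJB5, a J protein gene, at 19.5%, 15.9%, 98.1% and 89.4%, in HSPA1L at 51.1%, 44%, 95.5% and 72.4%, and in HSPA2, a testis HSP70, at 4.1%, 47%, 56.4% and 49.2%. The vehicle libraries of HSPA2 lay far apart. With its longest transcript, which had no promoter peak in any library, body coverage overlapped at 25.1%, 51.2%, 48.3% and 39%. HSPA1L adjoins HSPA1A, and the peak of HSPA1A reached 5202 and 3482 bp before its TSS with CDDD11-8 against 2680 and 2917 bp in vehicle, into HSPA1L. No promoter peak was called in any library at HSPA6, a strictly heat-induced HSP70, HSPA12B, or the small heat shock protein genes HSPB2, CRYAB and HSPB8.

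**Figure D5:**
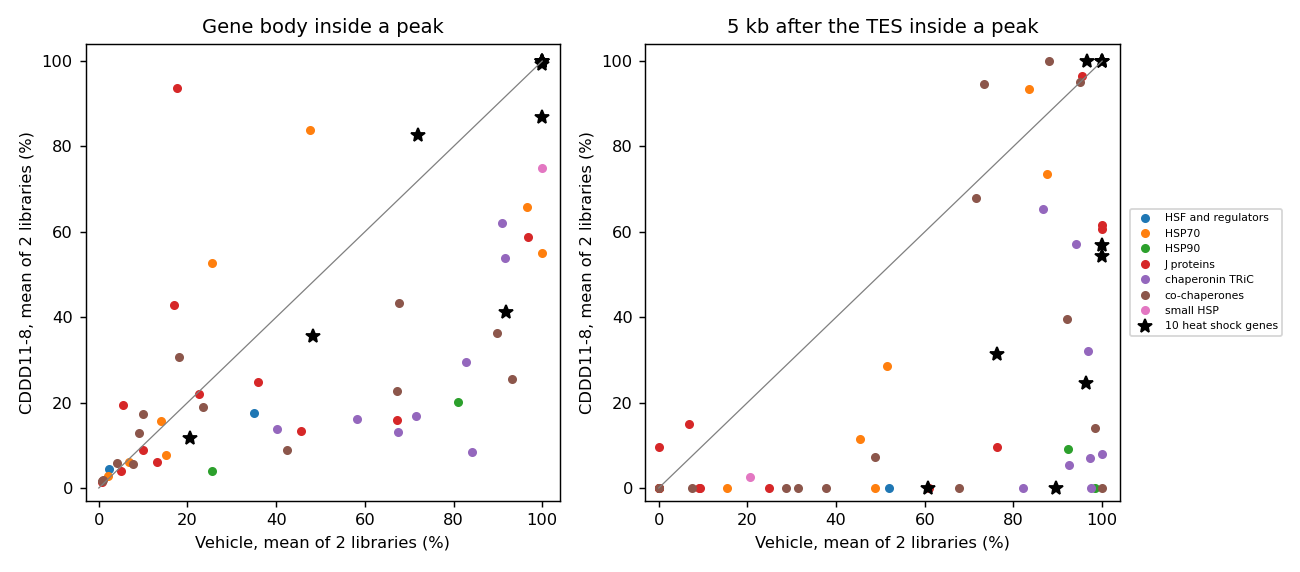
Mean of 2 vehicle libraries (x axis) against mean of 2 CDDD11-8 libraries (y axis) for coverage of the gene body (left) and of the 5 kb after the TES (right), in percent, for 47 other chaperone genes coloured by family and the 10 heat shock genes as stars; the line marks equal values. Below the line lie the TRiC subunits in both panels, and DNAJB5 is the point at the upper left of the gene body panel.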

How the data were processed

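RNAPII ChIP-seq had been done in 2 vehicle and 2 CDDD11-8 cultures with matched inputs, sequenced as 150 bp paired-end reads. Per the labels and methods, the authors used Bowtie 2 (build GRCh37, hg19) for alignment, and MACS2 with default settings and the paired input for calling peaks library by library; versions are not given in the sources used here. The deposited lists hold, for each summit, the peak's position and length, the pileup (signal), the fold enrichment over input (a ratio), and -log10 p-values and -log10 q-values, all at or above 2 for the latter. Pileup is not scaled to a common depth here and was not compared between libraries. The inputs were not analysed here, and 0 columns of other samples were set aside.

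Summits sharing a peak were joined. Genes were protein-coding genes of GENCODE release 44 lifted to GRCh37, measured at the longest transcript, which the study retained, and at the canonical one. Promoter windows were 300 bp either side of the TSS, bodies ran from 300 bp after the TSS to the TES, and the window after the TES was 5 kb. A promoter's percentile is its rank among promoter peaks of its library, with 100 highest. Groups were compared by exact two-sided permutation tests and by counts of separated libraries. The reading of fold, width, coverage and ratio was tested on a simulated set of peaks at genes lying apart. The percentiles and the counting of separated genes were not tested in that way. Python 3.11.15, pandas 2.3.3, numpy 2.4.6 and scipy 1.17.1 were used.

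The members, the gene lists and the windows were chosen with earlier results of these data known. All 10 members are named, and of the other chaperones the 3 most negative and 3 most positive differences in mean body coverage among separated genes, those with no promoter peak, and TRAP1, named after its values were seen. One marker gene is not reported here. HSPB11 and the marker PECAM1 had no matching symbol, and COL1A1 had a promoter peak in CDDD11-8 1 only. Alternatives covered the peak threshold, equal numbers of peaks, each library left out, the isoform, the windows, the ranking and the replicate block.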

Additional observations from a re-analysis of the deposited data

How the results depend on the processing

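Of 109 alternative values of the counts and medians over members, 97 stayed within 1.5 times the count or within the spread between replicates. That spread was 11.5 percentage points for body coverage, 10 for coverage after the TES and 18.4 for the promoter percentile. It is wide beside some medians: that of the percentile went from -3.43 to 0.898 without vehicle 2 and still counted as within it. Some of the 97 could not move, since the promoter window does not enter coverage and the block does not enter a median. The main values use the longest transcript, where 2 of 9 members were lower in body coverage. That count was 1 at a -log10 q-value of at least 5 and 1 with equal numbers of peaks (21842 each), 4 with the body drawn to 3 kb past the TES, and 2 to 5 with each library left out in turn; it was 4 without vehicle 2 and 5 without CDDD11-8 1. Under the replicate block, which pairs libraries by their number, it was 4, and the block changed no other count by over 1.5 times; the replicates are 2 experiments on successive passages, and whether same-numbered libraries share a passage is not stated. The median difference after the TES, -43.2 percentage points, was -10.2 with equal numbers of peaks, -13.4 over 10 kb, -50.6 to -30.6 with each library left out (-30.6 without CDDD11-8 2) and -60.8 without the 4 members whose window holds another gene's start, an alternative chosen after seeing the data. Members higher in promoter percentile numbered 4, and 2 with the canonical transcript and 1 when ranked among all peaks. The body difference of HSPH1 reversed from -8.5 to 0.435 percentage points at the stricter q-value and to 3.16 with equal numbers of peaks. That of HSPE1 reversed from 14 to -39.3 with the body drawn past the TES and to -12.2 without the promoter peak, whose shared width makes up that coverage. Of 190 alternative values of single members' coverage differences, 173 kept their call, separated or not. Small differences that were not separated could still change sign (HSP90AA1 in the body, -2.42, was 1.29 without vehicle 1). Of the rest, 9 gained separation, 4 lost it without reversing, and these 4 reversed in sign. A reversed value was counted as such whether separated or not: that of HSPE1 without the promoter peak was no longer separated. The causes of the other changes were not tested. Depth could not be read from the files, and n = 2 limits every comparison.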
